A study of Mus musculus with 12 samples.

Results

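Stefins, cystatins and WAP-domain proteins are small protease inhibitors, and 9 genes of these families were followed here: the stefin A genes Stfa1, Stfa2 and Stfa3, the stefin B gene Cstb, the cystatin genes Cst3 and Cst7, and the WAP-domain genes Wfdc17, Wfdc21 and Slpi. They were listed by name with earlier results of these data known. Counts of members or related genes called, set beside the share of all genes, therefore describe these lists and are no test of enrichment. Each member was read from the probe set annotated to its symbol alone with the highest mean, and they are 9 of the 22180 genes measured. All 9 exceeded the limit for dim genes and were among the 19152 genes tested. Expression was measured on 12 Affymetrix arrays of mouse leukaemia cells induced by the fusion oncogene MLL-AF9, which all groups carry. Leukaemias 81, 83 and 85 were labelled Dnmt3b-knockin in a field for Dnmt3b overexpression, and leukaemias 73, 75 and 79 were labelled WT. Each leukaemia was sorted into c-kit-positive and c-kit-negative cells, which gave 4 groups of 3 arrays: knock-in c-kit-positive, knock-in c-kit-negative, wild-type c-kit-positive and wild-type c-kit-negative. The titles place the cells in bone marrow and the source field in spleen. Strain, age, the promoter that drives Dnmt3b and whether each number is a separate mouse are not given in the sources used here, so p-values measure the spread between these samples.

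Stefins act inside the cell and cystatins mostly outside it or in endosomes, and both block papain-like cysteine proteases such as the cathepsins of lysosomes. Cystatin F, the product of Cst7, is carried to endolysosomes and inhibits cathepsin C, the enzyme that activates the serine proteases of granules. The WAP domain is a compact fold held by disulfide bonds, and Slpi uses it to block neutrophil elastase and cathepsin G. Dnmt3b adds methyl groups to unmethylated DNA, and c-kit, a receptor for stem cell factor, marks immature blood cells.

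Both labels were set against their genes first. Dnmt3b had a log2 level of 6.33 to 6.49 in knock-in and 6.33 to 6.66 in wild-type c-kit-positive cells, and of 6.16 to 6.64 in knock-in and 6.10 to 6.38 in wild-type c-kit-negative cells. Its knock-in minus wild-type difference over both fractions was 0.032 (95% confidence interval -0.187 to 0.252, limma adjusted p = 0.964), so the knock-in label names the groups below and no rise of Dnmt3b RNA was detectable. Over both genotypes the Kit level of c-kit-positive cells was above that of c-kit-negative cells by 2.65-fold (log2 1.40, limma adjusted p = 7.78e-06). All 10 genes of a list for leukaemic myeloid cells, among them Ptprc, Spi1 and Mpo, exceeded the limit on every array. Leukaemia 79 stood apart in some eosinophil and mast cell genes: Prg2 was at 8.39 in its c-kit-positive and 9.75 in its c-kit-negative cells, and at most 6.60 on the other arrays. Cpa3, Gata2 and Siglecf were also highest in leukaemia 79. Other markers of these cells, Epx, Il5ra, Ccr3, Ms4a2 and Tpsb2, did not set it apart. Epx, for one, was at 5.34 to 5.57 in wild-type c-kit-positive and 5.36 to 5.63 in wild-type c-kit-negative cells. Leukaemia 81 stood apart in Xist, at 6.30 and 6.27, where the other arrays were at 9.83 or above. Values without one of these leukaemias stand beside the results they moved most.

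The 3 stefin A genes lie in 1 cluster of 12 protein-coding genes on chromosome 16, over 335 kb from 36119946 to 36455392 (GRCm38.p6). They are near-identical copies in part, so a probe set of one may also bind RNA of another, and the probe sequences were not analysed here. RefSeq promoter windows, from 250 bases before to 50 bases after the annotated start, were matched for 7 of the 9 genes, all but Cstb and Wfdc21. The windows of the members Stfa1, Stfa2 and Stfa3 and of the neighbouring Stfa2l1 were 79.2% to 90.5% identical in pairwise global alignments. Of these 4 stefins, Stfa2, Stfa3 and Stfa2l1 were called by the sort below, and Stfa1 was not. Stfa2 and Stfa2l1 were the closest pair, at 90.5%. Pairs of these 4 with Cst3, Cst7, Slpi or Wfdc17, and pairs among those, were at 40.2% to 51.4%. Likeness was not confined to the 4. The window of the cluster gene Cstdc5 was 83.8% identical to that of Stfa1 and 75.1% to that of Stfa3. That of Cstdc4 was 74.5% identical to that of Stfa1. Other cluster windows were less alike, such as Csta1, at 48.1% with Stfa1 and 42.6% with Stfa2l1. The stretches from 150 bases before to 16 bases after the start show how much the 4 stefins share, and capitals mark runs of 10 or more bases that all 4 windows hold. Their places in GRCm38.p6 are chr16:36276998-36277163 on the plus strand for Stfa1, chr16:36408348-36408513 on the minus strand for Stfa2, chr16:36156661-36156826 on the plus strand for Stfa2l1 and chr16:36455377-36455542 on the minus strand for Stfa3.
Stfa1: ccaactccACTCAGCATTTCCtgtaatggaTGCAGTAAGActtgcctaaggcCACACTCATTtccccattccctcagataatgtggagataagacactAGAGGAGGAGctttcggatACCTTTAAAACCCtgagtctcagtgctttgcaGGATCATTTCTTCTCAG
Stfa2: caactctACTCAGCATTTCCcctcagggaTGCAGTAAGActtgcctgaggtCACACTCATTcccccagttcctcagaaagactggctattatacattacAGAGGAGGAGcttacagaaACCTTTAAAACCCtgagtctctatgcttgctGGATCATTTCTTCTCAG
Stfa2l1: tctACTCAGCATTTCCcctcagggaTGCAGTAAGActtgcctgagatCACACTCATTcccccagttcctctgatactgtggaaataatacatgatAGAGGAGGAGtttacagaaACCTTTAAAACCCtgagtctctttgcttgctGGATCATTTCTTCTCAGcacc
Stfa3: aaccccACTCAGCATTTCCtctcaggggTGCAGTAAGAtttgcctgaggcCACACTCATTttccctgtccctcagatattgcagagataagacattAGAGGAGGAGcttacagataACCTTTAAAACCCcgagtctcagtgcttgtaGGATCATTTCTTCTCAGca

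A run of 13 bases, ACCTTTAAAACCC, began 32 to 36 bases before the start in the 4 windows, and 8 of 27025 mouse promoter windows hold it on either strand (0.0296%). The others were Csta3, Cstdc4, Cstdc5 and Gm7260, which are genes of the same cluster. A run of 17 bases, GGATCATTTCTTCTCAG, crossed the annotated start, and 6 windows hold it (0.0222%), all of them in the cluster. The windows of Stfa2 and Stfa2l1 held no CG dinucleotide, as did 5.78% of all windows. Stfa1 had 2, Stfa3 had 3, Wfdc17 had 1, Slpi had 2, Cst7 had 5 and Cst3 had 13, where the median over all windows was 7. Methylation was not measured on these arrays, and the counts describe the sequence alone.

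The windows of Cst7 and Wfdc17 are shown because Cst7 was called by genotype and Wfdc17 by the sort. They are at chr2:150570265-150570430 for Cst7 and chr11:83703906-83704071 for Wfdc17, both on the plus strand of GRCm38.p6. Capitals mark matches on either strand to any of 4 motifs: the C/EBP core TTGCNNAA, the PU.1 core GAGGAA, the TATA box TATAAA and the AP-1 site TGANTCA.
Cst7: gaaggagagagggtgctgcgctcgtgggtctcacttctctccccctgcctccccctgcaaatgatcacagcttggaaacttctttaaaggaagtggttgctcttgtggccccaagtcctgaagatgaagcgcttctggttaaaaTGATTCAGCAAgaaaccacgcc
Wfdc17: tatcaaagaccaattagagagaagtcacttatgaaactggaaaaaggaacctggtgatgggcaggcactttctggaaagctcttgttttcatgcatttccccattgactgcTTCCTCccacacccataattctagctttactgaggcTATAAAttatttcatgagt

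In the Cst7 window an AP-1 and a C/EBP match overlap, beginning 6 and 3 bases before the start, and 7.93% and 10.8% of all windows hold these motifs. The Wfdc17 window holds the PU.1 core 39 bases before the start, found in 28.3% of windows, and the TATA letters 3 bases before it, found in 14.2%. The C/EBP core also occurs in Stfa1 (109 bases before the start) and Slpi (241 bases before it), and the PU.1 core in Stfa1, Stfa2, Stfa3 and Cst3. These are matches of letters only.

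The genotype comparison asked whether inhibitor expression differed in leukaemias labelled Dnmt3b-knockin. Cystatin F and Wfdc21 moved in opposite directions: Cst7 fell 3.75-fold in knock-in c-kit-positive cells, and Wfdc21 rose 2.13-fold in knock-in c-kit-negative cells. They were the only members called, 1 of 9 in each fraction, where 0.141% of all genes tested were called in c-kit-positive and 0.0627% in c-kit-negative cells. The members were chosen with earlier results of these data known, so these counts are no test of enrichment. Cst7 and Wfdc21 had the same sign in the other fraction without a call. The other 7 members had limma adjusted p-values of 0.435 or above in these comparisons.

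Cst7 (probe set 17377464; chromosome 2, 150570415 to 150578944) had log2 levels of 6.77, 6.53 and 6.47 in c-kit-positive cells of knock-in leukaemias 81, 83 and 85, against 8.22, 9.37 and 7.89 in those of wild-type leukaemias 73, 75 and 79. The groups did not overlap, and the wild-type leukaemias were spread more widely than the knock-in ones. The group means were 6.59 ± 0.16 in knock-in and 8.49 ± 0.776 in wild-type cells (SD, n = 3 arrays each). The difference was -1.91 (SE 0.33, 95% confidence interval -2.61 to -1.20, limma adjusted p = 0.0464). The call lay near the threshold and was lost without leukaemia 73 (-2.04, adjusted p = 0.112), 79 (-2.21, 0.0556), 83 (-1.87, 0.287) or 85 (-1.85, 0.113), and the adjusted p ranged from 0.0195 to 0.287 over 14 alternatives. The difference itself was -1.47 or further below 0 in each of them.

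In c-kit-negative cells Cst7 was at 6.40, 6.25 and 6.11 in the knock-in leukaemias, against 7.37, 8.08 and 6.95 in the wild-type ones. Every knock-in value again lay below every wild-type value, by 2.31-fold between the means. The difference of -1.21 (SE 0.33) had a limma adjusted p of 0.56 and was not called. Cystatin F is known from cytotoxic lymphocytes, mast cells and myeloid cells, so markers of those cells were read beside it. In c-kit-positive cells, 17 late neutrophil genes summed to 147 to 152 in knock-in and 128 to 138 in wild-type leukaemias on the log2 scale. The sum of 20 monocyte, macrophage and dendritic cell markers was 129 to 130 in knock-in and 130 to 134 in wild-type leukaemias. In knock-in, 4 of 17 and 0 of 19 tested genes were called higher, where 0.141% of all genes were called. The summed log2 level of 13 NK and T cell markers was 67.3 to 69.3 in knock-in and 66.2 to 68.7 in wild-type c-kit-positive cells, with Gzma at or below the limit for dim genes on every array and 0 of 11 tested markers called. That of 12 eosinophil, basophil and mast cell markers was 60.2 to 61.5 in knock-in and 62.2 to 69.4 in wild-type c-kit-positive cells, with Fcer1a and Mcpt4 at or below the limit on every array and 0 of 10 tested markers called. The high end was leukaemia 79, without which the Cst7 difference was -2.21. The part of any of these cells in the Cst7 difference was not tested. In c-kit-negative cells the NK and T cell sum was 69.9 to 72.2 in knock-in and 67.9 to 68.7 in wild-type leukaemias, and the eosinophil, basophil and mast cell sum was 59.2 to 61.8 in knock-in and 61 to 68.9 in wild-type leukaemias. In such bulk samples fewer cells of a type and less RNA per cell cannot be told apart.

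Wfdc21 (probe set 17254300; chromosome 11, 83746940 to 83752646), which encodes a small WAP-like protein also known as Wdnm1-like, had log2 levels of 7.38, 7.21 and 7.59 in c-kit-negative cells of knock-in leukaemias 81, 83 and 85, against 6.13, 6.61 and 6.17 in those of wild-type leukaemias 73, 75 and 79. The lowest knock-in value stood above the highest wild-type value, that of leukaemia 75. The means were 7.39 ± 0.192 in knock-in and 6.30 ± 0.267 in wild-type cells (SD, n = 3 arrays each). The difference was 1.09 (SE 0.17, 95% confidence interval 0.74 to 1.45, limma adjusted p = 0.0319). The call was lost without leukaemia 73 (1.01, adjusted p = 0.342), 79 (1.03, 0.151), 83 (1.19, 0.118) or 85 (0.99, 0.0774), with adjusted p-values of 0.015 to 0.342 over 14 alternatives.

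In c-kit-positive cells Wfdc21 was at 6.73, 6.96 and 6.98 in the knock-in leukaemias, against 6.19, 6.64 and 6.14 in the wild-type ones. These groups did not overlap either, and the difference of 0.57 (SE 0.17) had a limma adjusted p of 0.225. Genes of late neutrophils moved the same way. Of 17 such genes, 4 were called higher in knock-in c-kit-positive cells (Chil1, Ltf, Ly6g and S100a8), where 0.141% of all genes were called. In knock-in c-kit-negative cells 4 were called higher (Chil1, Cxcr2, Ltf and Ly6g), where 0.0627% of all genes were called. None was called lower. Their summed log2 level was 147 to 152 in knock-in and 128 to 138 in wild-type c-kit-positive cells, and 164 to 167 in knock-in and 143 to 154 in wild-type c-kit-negative cells. Across the 12 arrays the gene most like Wfdc21 was Lrg1, the gene of leucine-rich alpha-2-glycoprotein and a member of that list (Pearson r = 0.93). The part of neutrophil maturation in the Wfdc21 difference was not tested.

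**Figure D1:**
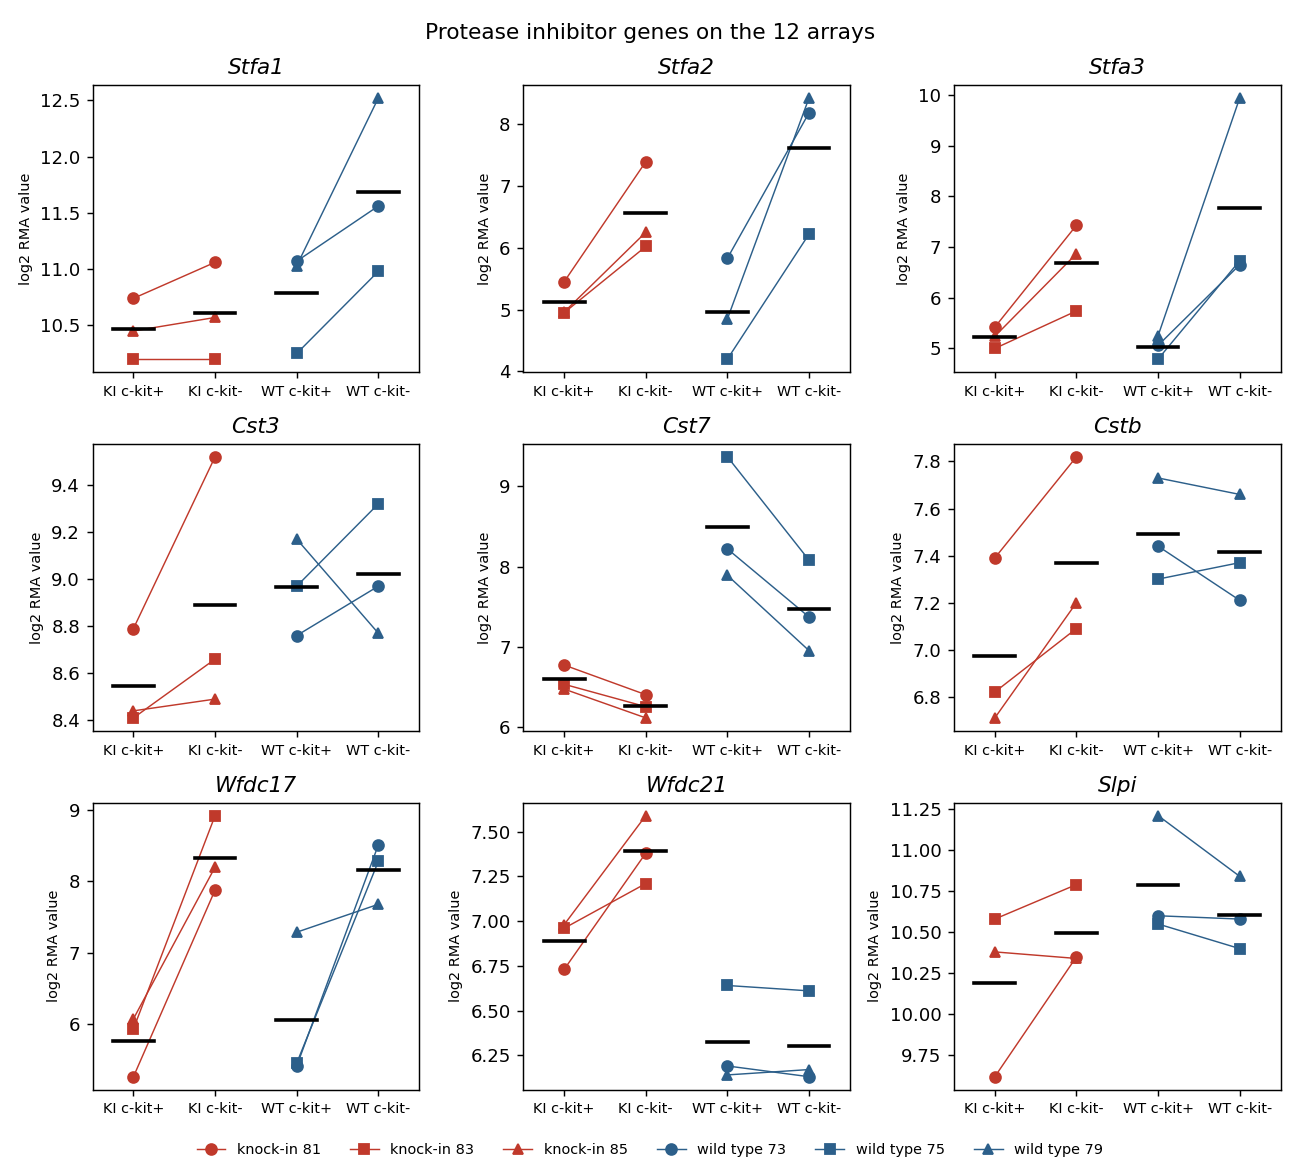
Log2 RMA values (y axis) of the 9 genes in the 4 groups (x axis; KI, knock-in; WT, wild type), with points joined for both fractions of a leukaemia and black bars for group means of 3 arrays. Cst7 was lower in every knock-in sample than in the wild-type samples of the same fraction and Wfdc21 was higher, while Stfa2, Stfa3 and Wfdc17 stood lower in c-kit-positive cells of every leukaemia.

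The remaining 7 members showed no call by genotype. Stfa1 (probe set 17325347; chromosome 16, 36277148 to 36285371) was at 11.06, 10.20 and 10.57 in knock-in c-kit-negative cells, against 11.56, 10.98 and 12.52 in wild-type c-kit-negative cells, where 1 knock-in leukaemia stood among the wild-type ones. Its difference was -1.08 (95% confidence interval -1.82 to -0.34, limma adjusted p = 0.676), or -0.66 without leukaemia 79, and in c-kit-positive cells it was -0.32. Stfa2 and Stfa3 had close differences in c-kit-negative cells, -1.05 and -1.09, and differences of 0.16 and 0.19 in c-kit-positive cells, all with wide intervals that included 0. Without leukaemia 79, whose c-kit-negative cells had the highest Stfa2 and Stfa3 values of all arrays, the differences in c-kit-negative cells were -0.65 for Stfa2 and -0.01 for Stfa3, and that of Stfa3 over both fractions was 0.15 in place of -0.45. None of these differences passed the test, so their signs are those of these samples.

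Slpi (probe set 17394153; chromosome 2, 164354070 to 164356507), the elastase inhibitor, was at 9.62, 10.58 and 10.38 in knock-in c-kit-positive cells, against 10.60, 10.55 and 11.21 in wild-type c-kit-positive cells. Leukaemia 81 was the lowest, and the groups overlapped. Its difference was -0.59 (95% confidence interval -1.11 to -0.07, limma adjusted p = 0.435), and it was -0.30 without leukaemia 81 and -0.38 without leukaemia 79 (adjusted p of 0.371 to 0.926 over the alternatives). In c-kit-negative cells it was -0.11. Cstb (probe set 17234803; chromosome 10, 78425670 to 78427622), the gene of the widely expressed stefin B, was at 7.39, 6.82 and 6.71 in knock-in c-kit-positive cells, against 7.44, 7.30 and 7.73 in wild-type ones. That difference was -0.51 (95% confidence interval -0.98 to -0.05, limma adjusted p = 0.443), and the c-kit-negative one was -0.05. Cst3 (probe set 17392609; chromosome 2, 148871722 to 148875512), the gene of the secreted inhibitor cystatin C, was at 8.79, 8.41 and 8.44 in knock-in c-kit-positive cells, against 8.76, 8.97 and 9.17 in wild-type ones. In c-kit-negative cells it was at 9.52, 8.66 and 8.49 in knock-in leukaemias, against 8.97, 9.32 and 8.77 in wild-type ones. The groups overlapped in both fractions, and Cst3 differed by -0.42 in c-kit-positive and -0.13 in c-kit-negative cells. Its other probe set had means of 6.54 in knock-in and 6.64 in wild-type c-kit-positive cells, and of 7.04 and 6.82 in knock-in and wild-type c-kit-negative cells, so the sign in c-kit-negative cells depended on the probe set. Wfdc17 differed by -0.30 and 0.18, and both signs turned without leukaemia 79.

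When both fractions of a leukaemia were averaged and 3 leukaemias were set against 3, 0 of 9 members were called by limma, where 0.0261% of all genes were called and 1603 had an unadjusted p under 0.05. Cst7 averaged 6.42 ± 0.151 in knock-in and 7.98 ± 0.671 in wild-type leukaemias (SD, n = 3 leukaemias each), a difference of -1.56 (limma adjusted p = 0.203). Wfdc21 averaged 7.14 ± 0.127 in knock-in and 6.31 ± 0.272 in wild-type leukaemias, a difference of 0.83 (limma adjusted p = 0.174). With the 12 arrays kept apart and the leukaemia as a random replicate block, these 2 genes were called, at adjusted p = 0.0175 for Cst7 and 0.019 for Wfdc21, where 0.178% of all genes were called. Over the alternatives of this comparison the adjusted p ranged from 0.0175 to 0.608 for Cst7 and from 0.019 to 0.529 for Wfdc21. The knock-in and wild-type groups did not overlap for the same 2 of 9 members in c-kit-positive cells, in c-kit-negative cells and in the leukaemia means, where 17.4%, 8.88% and 13% of all genes had groups apart. The median difference of the 9 members was -0.32 in c-kit-positive and -0.13 in c-kit-negative cells, where the medians over all genes were 0.01 and -0.00.

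**Figure D2:**
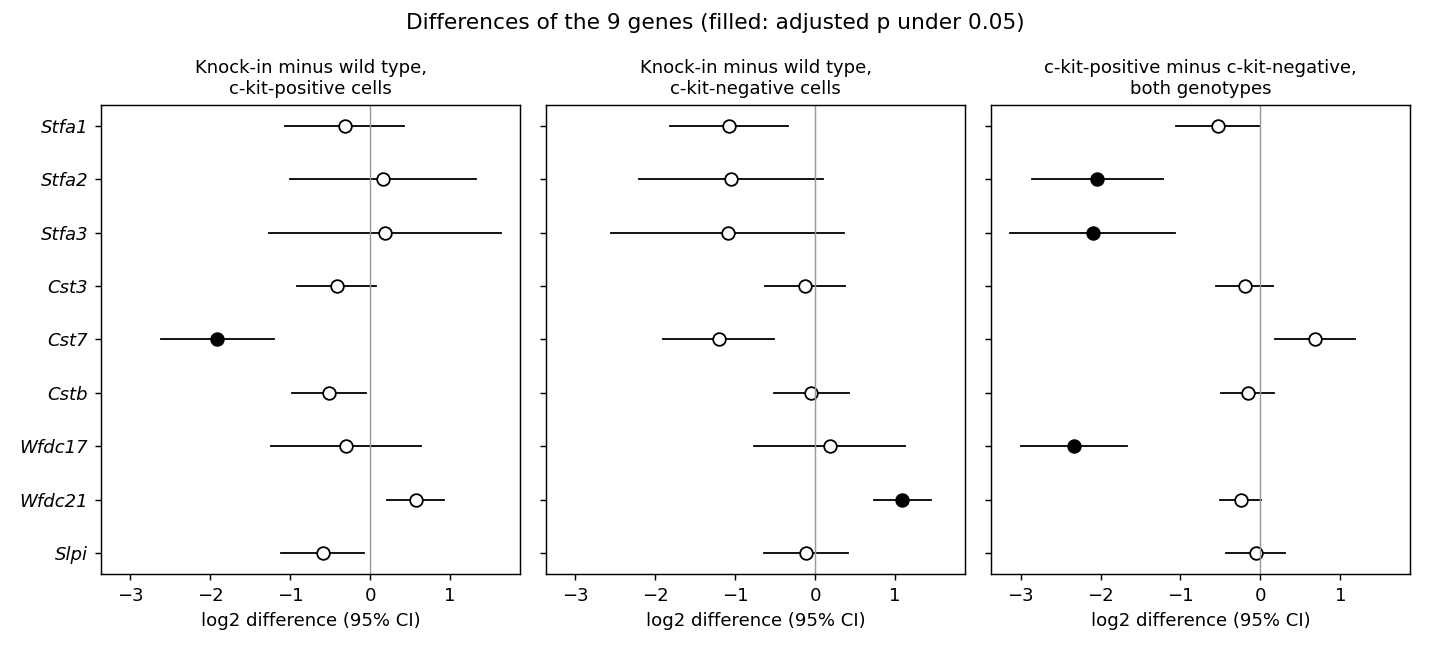
Log2 differences (x axis) of the 9 genes (y axis) for knock-in minus wild type in each fraction and for c-kit-positive minus c-kit-negative cells over both genotypes, with 95% confidence intervals as bars and filled points for a limma adjusted p under 0.05. Cst7 at -1.91 and Wfdc21 at 1.09 lie on opposite sides of 0 in the genotype panels, and Stfa2, Stfa3 and Wfdc17 lie near -2 in the sort panel.

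The sort comparison asked how the inhibitors differed between immature, c-kit-positive cells and the c-kit-negative cells of the same leukaemias. Wfdc17, Stfa2 and Stfa3 were each over 4 times lower in c-kit-positive cells on average over the leukaemias, and were lower to some degree in 6 of 6. The share of all genes with 1 direction in 6 of 6 leukaemias, or with fractions that did not overlap, was not counted. Wfdc17, Stfa2 and Stfa3 were 3 of 9 members, chosen with earlier results known, that were called over both genotypes, where 8.25% of all genes were. No member was called higher. Cst7 ran the other way, higher in c-kit-positive cells of 6 of 6 leukaemias by 0.27 to 1.29 on the log2 scale. Cst3, Cstb and Slpi differed by -0.19, -0.16 and -0.06, with 95% confidence intervals of -0.55 to 0.16, -0.49 to 0.17 and -0.43 to 0.31.

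Wfdc17 (probe set 17254289; chromosome 11, 83704056 to 83706269) encodes a WAP protein of activated macrophages and microglia, also called Amwap. It was at 5.27, 5.94 and 6.08 in knock-in c-kit-positive cells of leukaemias 81, 83 and 85, against 7.88, 8.92 and 8.20 in their c-kit-negative cells. It was at 5.42, 5.46 and 7.29 in wild-type c-kit-positive cells of leukaemias 73, 75 and 79, against 8.51, 8.28 and 7.68 in their c-kit-negative cells. All c-kit-positive arrays lay below all c-kit-negative arrays, and leukaemia 79 had by far the smallest gap, at -0.39. Over both genotypes the difference was -2.33, a 5.04-fold lower level (SE 0.31, limma adjusted p = 0.000867). It was -2.57 in knock-in (adjusted p = 0.00905) and -2.10 in wild-type leukaemias (adjusted p = 0.0466). Without leukaemia 79 the wild-type difference was -2.95 and the one over both genotypes -2.76. The knock-in call was lost without leukaemia 83 (-2.37, adjusted p = 0.136), and the wild-type call without 73 (-1.60, 0.419), 75 (-1.74, 0.439) or 83 (-2.10, 0.0904). The adjusted p over 13 alternatives of the comparison over both genotypes stayed between 7.89e-05 and 0.0128.

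Stfa2 (probe set 17330175; chromosome 16, 36403946 to 36408363) was at 5.45, 4.95 and 4.96 in knock-in c-kit-positive cells, against 7.39, 6.02 and 6.25 in knock-in c-kit-negative cells. In the wild-type leukaemias it was at 5.83, 4.20 and 4.85 in c-kit-positive cells, against 8.18, 6.22 and 8.42 in c-kit-negative cells. The fractions did not overlap in either genotype, and the c-kit-positive value of leukaemia 75 fell below the limit for dim genes. The difference was -2.04 over both genotypes, 4.12-fold lower (SE 0.38, limma adjusted p = 0.00615), -1.44 in knock-in (adjusted p = 0.251) and -2.65 in wild-type leukaemias (adjusted p = 0.0446). The wild-type call was lost without leukaemia 73 (-2.80, adjusted p = 0.213), 79 (-2.19, 0.21) or 83 (-2.65, 0.0904), and the call over both genotypes held in 13 of 13 alternatives, with adjusted p-values from 2.15e-05 to 0.0316.

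Stfa3 (probe set 17330183; chromosome 16, 36450537 to 36455392) was at 5.42, 5.0 and 5.24 in knock-in c-kit-positive cells, against 7.43, 5.74 and 6.87 in knock-in c-kit-negative cells. In the wild-type leukaemias it was at 5.06, 4.79 and 5.25 in c-kit-positive cells, against 6.65, 6.73 and 9.94 in c-kit-negative cells. The highest value of all, 9.94, belonged to leukaemia 79, the one with high Prg2, Cpa3, Gata2 and Siglecf. Over both genotypes the difference was -2.10, 4.28-fold lower (SE 0.48, limma adjusted p = 0.0173), and without leukaemia 79 it was -1.61 (adjusted p = 0.00483), within a range of 0.000777 to 0.0483 over 13 alternatives. It was -1.46 in knock-in (adjusted p = 0.395) and -2.74 in wild-type leukaemias (adjusted p = 0.0828), where leaving out leukaemia 79 gave -1.76 (adjusted p = 0.0938). The knock-in difference was called without leukaemia 79 (adjusted p = 0.0482, of 0.0482 to 0.652 over its alternatives) and the wild-type one without leukaemia 81 (0.0496, of 0.00414 to 0.347), each fit estimating the spread from the remaining arrays.

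Stfa1 was at 10.74, 10.20 and 10.45 in knock-in c-kit-positive cells, against 11.06, 10.20 and 10.57 in knock-in c-kit-negative cells. In the wild-type leukaemias it was at 11.07, 10.25 and 11.03 in c-kit-positive cells, against 11.56, 10.98 and 12.52 in c-kit-negative cells. The fractions overlapped in both genotypes, and the gap was widest in leukaemia 79, at -1.49. The difference was -0.53 over both genotypes (limma adjusted p = 0.21), -0.15 in knock-in and -0.91 in wild-type leukaemias (adjusted p = 0.219).

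Cst7 was the member that ran the other way. Its c-kit-positive minus c-kit-negative gap was 0.36, 0.27 and 0.36 in knock-in leukaemias 81, 83 and 85, and 0.85, 1.29 and 0.94 in wild-type leukaemias 73, 75 and 79. The smallest wild-type gap was above the largest knock-in gap, and the share of all genes with gaps apart in this way was not counted. The limma test of the genotype by fraction interaction did not call Cst7 (-0.70, unadjusted p = 0.154). A difference of the Cst7 gap between the genotypes was therefore not shown. The mean gap was 0.33 in knock-in (limma adjusted p = 0.753) and 1.03 in wild-type leukaemias (adjusted p = 0.148).

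Within a genotype, 1 of 9 members was called by the sort in the knock-in and 2 of 9 in the wild-type leukaemias, where 1.88% and 0.768% of all genes were called. Both fractions come from the same leukaemia, and with the leukaemia as a fixed replicate block more members passed. In the knock-in leukaemias 4 of 9 were called, where 8.7% of all genes were: Wfdc17, Stfa2 (adjusted p = 0.00353), Cstb (-0.39, 0.0272) and Wfdc21 (-0.51, 0.00934), all lower in c-kit-positive cells. In the wild-type leukaemias 5 of 9 were called, where 11% of all genes were: Wfdc17, Stfa2, Stfa3 (0.00414) and Stfa1 (-0.91, 0.00551) were lower, and Cst7 was higher (1.03, 0.000342). Over both genotypes 6 of 9 were called with the block, where 19.6% of all genes were. Those added were Stfa1 (-0.53, 0.00613), Wfdc21 (-0.24, 0.0341) and, in the opposite direction, Cst7 (0.68, 9.4e-05). Without the block Cst7 had a limma adjusted p of 0.0929 over both genotypes, and its range over the alternatives was 9.4e-05 to 0.235.

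Wfdc17 and Wfdc21 lie 41 kb apart on chromosome 11, and Wfdc17 was called by the sort and Wfdc21 by the genotype label. Their levels had a Pearson r of 0.19 over the 12 arrays. The sort difference of Wfdc21 was -0.51 in knock-in leukaemias (limma adjusted p = 0.168) and 0.02 in wild-type leukaemias. The test of the genotype by fraction interaction called 0 of 9 members with limma and 0% of all genes, where 427 of 19152 genes had an unadjusted p under 0.05. The members' interaction estimates ran from -0.70 for Cst7 (95% confidence interval -1.69 to 0.30) to 1.28 for Stfa3 (95% confidence interval -0.78 to 3.34). A larger sort difference of the stefins in wild-type leukaemias was therefore not shown.

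The other stefins and cystatins were read in the same sort comparison. Of 15 such genes tested, 1 was called over both genotypes, where 8.25% of all genes were: Stfa2l1 (chromosome 16, 36156811 to 36161948), at -1.47 (limma adjusted p = 0.00606). Stfa2l1 averaged 9.24 ± 0.163 in knock-in c-kit-positive and 10.29 ± 0.283 in knock-in c-kit-negative cells, and 9.36 ± 0.799 in wild-type c-kit-positive and 11.25 ± 0.798 in wild-type c-kit-negative cells (SD, n = 3 arrays each). Of the 12 protein-coding genes in the cluster, 11 were tested, 3 were called lower and all 11 had a difference below 0. Their median was -0.53, where the median of all genes was -0.03. Csta2, Csta3, Cstdc3 and Cstdc5 had group means of 4.66 to 5.52, near the limit for dim genes. Probe sets of copies may share signal, so the 11 differences need not be separate readings. The 6 genes Stfa2l1, Cstdc4, Stfa1, Cstdc6, Stfa2 and Stfa3 were lower in c-kit-positive cells of all 6 leukaemias, although the difference of Stfa1 in leukaemia 83 was -0.00. The shares of all genes that were lower in all 6 leukaemias, or had a difference below 0, were not counted. The gap was widest in leukaemia 79 for 8 of the 11 genes, at -4.69 for Stfa3 and -2.94 for Cstdc4. Cstdc4 (-1.10, limma adjusted p = 0.112) was not called, nor was Cstl1 (-0.04), which lies elsewhere and was the next most brightly measured gene of the list after Stfa2l1 and Cstdc4. No cluster gene was called by genotype in either fraction. Of 17 further WAP-domain genes tested, 0 were called by limma in any of the 7 comparisons, and the brightest, Wfdc10, Wfdc13 and Wfikkn1, differed by -0.18, -0.12 and -0.13 between the fractions.

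**Figure D3:**
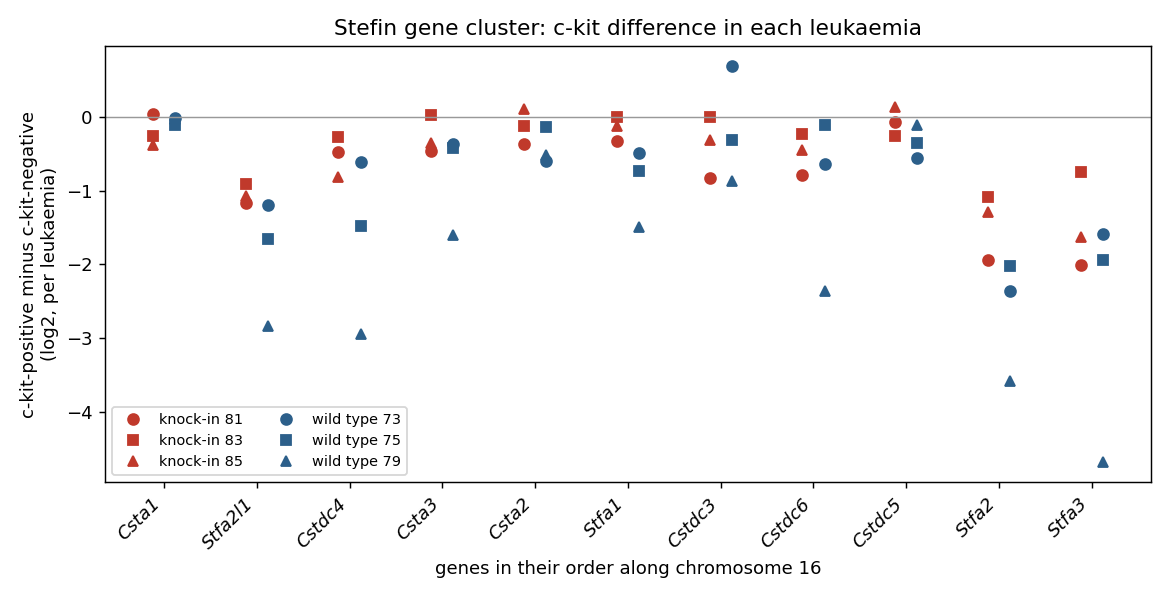
Difference between c-kit-positive and c-kit-negative cells (log2, y axis) in each leukaemia for 11 genes of the stefin cluster in their order along chromosome 16 (x axis), with knock-in leukaemias in red on the left and wild-type leukaemias in blue on the right of each position. Stfa2l1, Stfa2 and Stfa3 lie below 0 in every leukaemia, and leukaemia 79 has the lowest point for those 3 genes and for Cstdc4, Csta3, Stfa1, Cstdc3 and Cstdc6.

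Cysteine and serine proteases, among them targets of these inhibitors, were read in the same comparison. Of 12 cysteine proteases tested, 5 were called lower in c-kit-positive cells over both genotypes and none higher, where 8.25% of all genes were called. They were cathepsin S (Ctss, -1.84, limma adjusted p = 0.00337), calpain 2 (Capn2, -1.08, 0.00303), cathepsin H (Ctsh, -0.76, 0.0474), legumain (Lgmn, -0.65, 0.0268) and cathepsin L (Ctsl, -0.63, 0.032). Calpain 2 is a cytosolic protease and no target of these members. Cathepsin C (Ctsc), the target of cystatin F, differed by -0.84 (adjusted p = 0.0947), and the brightly measured cathepsins B (Ctsb) and Z (Ctsz) by -0.25 and -0.10, without a call. Ctss averaged 6.39 ± 0.344 in knock-in c-kit-positive and 8.33 ± 0.655 in knock-in c-kit-negative cells, and 6.41 ± 0.232 in wild-type c-kit-positive and 8.14 ± 1.08 in wild-type c-kit-negative cells (SD, n = 3 arrays each). The list's median was -0.48, where the median of all genes was -0.03.

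Granule serine proteases ran the other way: 5 of 9 tested were called higher in c-kit-positive cells and none lower, where 8.25% of all genes were called. Cathepsin G (Ctsg, 1.79, limma adjusted p = 0.00456) and neutrophil elastase (Elane, 1.61, 0.0145), both targets of Slpi, led, followed by proteinase 3 (Prtn3, 1.33, 0.00879), Mcpt8 (0.88, 0.0293) and Prss57 (0.82, 0.000934). Slpi itself differed by -0.06 over the same arrays. Of 18 serpins, TIMPs and Kunitz inhibitors tested, 2 were called higher, Serpinb1a (0.93, 0.00766), an inhibitor of neutrophil serine proteases, and Spint2 (0.45, 0.0356). Timp2 was called lower (-0.56, 0.0304), and these calls also stand beside the 8.25% of all genes. No gene of these lists was called in a genotype comparison. In knock-in against wild-type leukaemias the list medians over both fractions were 0.02 for the cysteine proteases, 0.12 for the granule serine proteases and 0.05 for the other inhibitors.

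**Figure D4:**
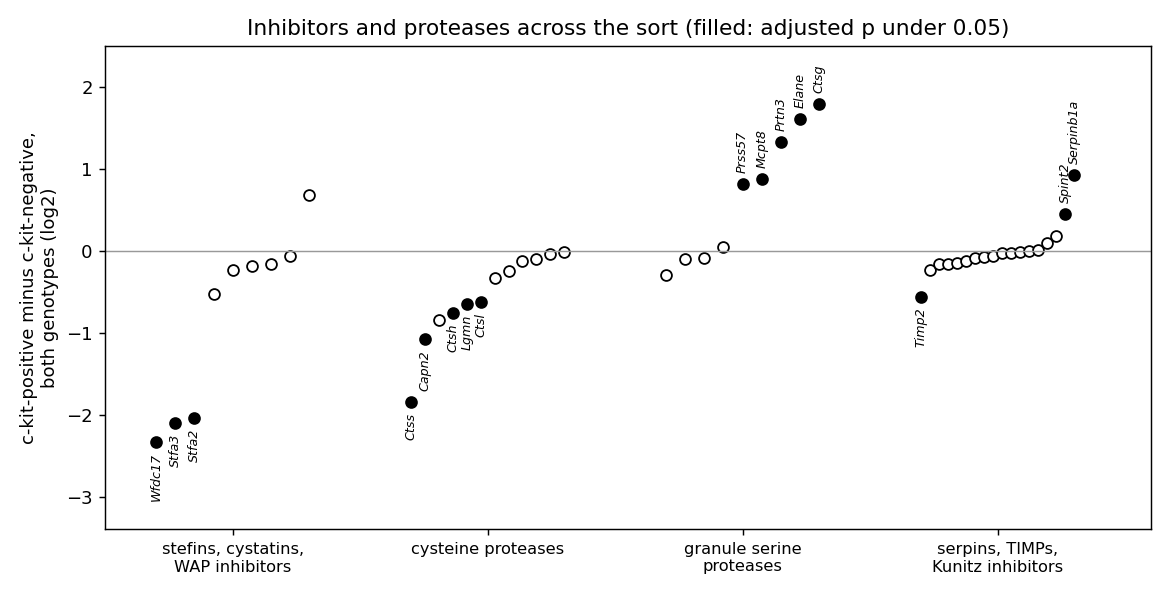
Log2 difference between c-kit-positive and c-kit-negative cells over both genotypes (y axis) for the 9 inhibitors and 3 lists of related genes (x axis, each sorted by its difference), with filled, named points for a limma adjusted p under 0.05. The called genes among the 9 inhibitors and the cysteine proteases lie below 0 and the called granule serine proteases above it, up to 1.79 for Ctsg, while the serpins, TIMPs and Kunitz inhibitors have called genes on both sides.

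Some markers of mature myeloid cells moved with the sort. Of 17 late neutrophil genes 8 were called lower in c-kit-positive cells over both genotypes. Of 19 monocyte, macrophage and dendritic cell markers 4 were called lower (Ccr2, Cd68, Csf1r and Cx3cr1). No gene of either list was called higher, where 8.25% of all genes were called. Without a call, Vcam1 and Cd209a averaged higher in c-kit-positive cells of both genotypes. Vcam1 means were 7.62 against 6.60 in knock-in and 7.93 against 7.17 in wild-type leukaemias. Among the late neutrophil genes, also without a call, Hp averaged higher in c-kit-positive cells of both genotypes. Camp (11.06 against 10.48) and S100a9 (10.78 against 10.67) did so in knock-in leukaemias and averaged lower in wild-type ones. The median differences were -0.62 for the late neutrophil genes and -0.12 for the monocyte, macrophage and dendritic cell markers, where that of all genes was -0.03. The summed log2 level of 20 such monocyte and dendritic markers was 129 to 130 in knock-in c-kit-positive and 131 to 137 in knock-in c-kit-negative cells, and 130 to 134 in wild-type c-kit-positive and 133 to 135 in wild-type c-kit-negative cells. C1qc was at or below the limit for dim genes on every knock-in array. The sort ranges of the late neutrophil genes stand with Wfdc21 above. The part of these cells in the stefin and Wfdc17 differences was not tested.

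Patterns across the 12 arrays, given as a description without a test because arrays of a leukaemia share their source, grouped the members. Stfa1, Stfa2 and Stfa3 ran together (Pearson r = 0.80 to 0.86), as did Cst3 and Cstb (0.76), and the most opposed pair was Cst7 and Wfdc21 (-0.62). The genes most like Stfa1 were its neighbours Cstdc4 (0.94) and Cstdc6 (0.89), then Ecm1 (0.88), and for Stfa2 they were Stfa2l1 (0.98), Rin2 (0.92) and Cstdc6 (0.90). Stfa3 was most like Epha2 (0.88), Mir184 (0.87) and P2ry6 (0.87). Cst3 was most like Ly86 (0.96), the antigen presentation gene H2-DMa (0.95) and the chemokine receptor gene Cxcr4 (0.94). Wfdc17 was most like Gpr141 (0.96), Clec4e (0.95) and Thap6 (0.94). Cst7 was most like Ntmt1 (0.96), Rbm22 (0.95) and Cabin1 (0.94), Cstb like Shkbp1 (0.90), Tmem189 (0.89) and Pigh (0.87), and Slpi like Clcn5 (0.92), Itpr3 (0.88) and Pkn3 (0.85). After Lrg1, Wfdc21 was most like Ly6a2 (0.89) and Lgals7 (0.88). Both probe sets of Cst3 had a correlation of 0.78.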

How the data were processed

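Total RNA of 12 sorted samples was hybridised to Affymetrix whole-transcript arrays, per the labels' protocols. The deposited values are log2 RMA values of 41345 probe sets, made in Affymetrix Expression Console, per the submitters' processing notes, which give no versions. They were used as deposited, and the table held 0 columns of other samples. A probe annotation gave 1 gene symbol to 23521 probe sets, several to 1814, and 16010 were not listed. The probe set with the highest mean stood for a gene, and a gene was tested if 3 or more arrays exceeded log2 4.61, the limit for dim genes, which is the 25th percentile of all values.

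A limma model (version 3.58.1, R 4.3.3, statmod 1.5.0; lmFit, contrasts.fit, eBayes) with 4 group means was fitted to all 12 arrays and 19152 genes, and the genotype comparison over both fractions to the means of 6 leukaemias. Tests were two-sided, with Benjamini-Hochberg adjustment over all genes tested and a threshold of 0.05. The model was tested on simulated arrays drawn independently of one another, so that test does not cover arrays that share a leukaemia. Both arrays of a leukaemia share its number in the labels, and the samples were paired by it. Deviations of these pairs from the group means correlated at 0.259 to 0.586. Arrays with different numbers were not compared in this way, so the pairing rests on the labels. In the alternative fit the leukaemia was a fixed replicate block in the sort and interaction contrasts and a random one (consensus correlation 0.353) in the genotype contrasts. Other alternatives were repeated quantile normalization, median centring, other filters, the mean of all probe sets, an eBayes trend, the arrays of a comparison alone, and leaving out each leukaemia. Arrays have no depth, so their number limits the precision. RefSeq promoter windows (GRCm38.p6) were aligned with Biopython.

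The members and lists were chosen with earlier results of these data known. All members were named in every comparison. Of the lists of related inhibitors and proteases, genes past the threshold and the 3 with the highest mean level were named. The 3 genes most like each member were those with the highest Pearson correlation over the 12 arrays, predicted genes left out. No biological replicate is described beyond the leukaemia numbers.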

Additional observations from a re-analysis of the deposited data

How the results depend on the processing

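Of the single-gene results, the sort differences of Stfa2, Stfa3 and Wfdc17 over both genotypes kept their sign and their call in each of 13 alternatives, whereas the genotype calls of Cst7 and Wfdc21 and the calls within a genotype did not. In knock-in minus wild type in c-kit-positive cells, 0 members were called with repeated quantile normalization, median centring, no filter on dim genes or the mean of all probe sets, in place of 1. In c-kit-negative cells, 0 members and 1 gene were called with the arrays of the comparison alone, in place of 1 and 12. In the wild-type sort comparison 0 members were called with centring or without the filter, in place of 2. Genes called were 543 with quantile normalization in the knock-in sort comparison (360 otherwise), and with centring 2 by genotype over both fractions (5) and 69 in the wild-type sort comparison (147). The genotype calls over both fractions were 2 higher and 0 lower in knock-in leukaemias with centring, against 4 higher and 1 lower otherwise. In c-kit-positive cells by genotype, 17 genes were called with the mean of probe sets and 64 with the arrays of the comparison alone (27 otherwise). The arrays alone gave 145 in the knock-in and 898 in the wild-type sort comparison.

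With the leukaemia as a replicate block, 34 genes and 2 members were called by genotype over both fractions, 1666 and 4 by the sort in knock-in, 2109 and 5 in wild-type and 3758 and 6 in all leukaemias. The block gave 0 interaction calls and changed no call of a member by genotype within a fraction. Genes called by genotype in c-kit-positive cells were 10 higher and 13 lower with the block, against 11 and 16 otherwise.

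With each leukaemia left out in turn, the genes called ranged from 0 to 123 by genotype in c-kit-positive cells, 3 to 83 in c-kit-negative cells, 2 to 115 over both fractions, 59 to 367 by the sort in knock-in, 1 to 665 in wild-type and 503 to 2092 in all leukaemias, and 0 to 1 for the interaction. Members called ranged from 0 to 1 by genotype in each fraction, from 0 to 2 by the sort in knock-in, 0 to 3 in wild-type and 3 to 4 in all leukaemias. No called difference turned sign, but uncalled ones did. By genotype in c-kit-positive cells, these fits gave -0.22 to 0.59 for Stfa2 and -0.61 to 0.32 for Wfdc17. In c-kit-negative cells they gave -0.45 to 0.07 for Cst3, -0.27 to 0.09 for Cstb, -0.12 to 0.40 for Wfdc17 and -0.26 to 0.00 for Slpi, and over both fractions -0.77 to 0.15 for Stfa3 and -0.25 to 0.18 for Wfdc17. The sort difference was -0.28 to 0.10 for Cst3 and -0.00 to 0.15 for Cstb in wild-type and -0.14 to 0.05 for Slpi in all leukaemias, and the interaction of Wfdc17 -0.97 to 0.38. Cst3 also turned to 0.04 by genotype in c-kit-negative cells with the mean of its probe sets and to 0.00 by the sort in wild-type leukaemias with centring. The cause of these changes was not tested.

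With 3 leukaemias a group, adjusted p-values near the threshold move with single samples, and a p above it does not show that levels were alike. RMA values carry no detection call, and low values, such as those of Stfa2 in c-kit-positive cells, lie near the array's background, where differences are compressed. Overlap of the stefin A probe sets with other copies was not tested. The tissue and the mice are known only as far as the labels give them.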
